A study of Homo sapiens with 4 samples.

Results

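Transcript levels of 10 genes of TGF-beta, activin and BMP signalling were examined in MCF10A, an immortalized, non-tumorigenic line of human mammary epithelium. The genes were the ligand genes TGFB1, TGFB2 and INHBA, the receptor gene TGFBR2, the ligand antagonists FST and FSTL3, the inhibitory SMAD gene SMAD7 and the BMP target genes ID1, ID2 and ID3. They were chosen by name, and each Affymetrix probe set annotated to exactly 1 of these symbols was taken, which gave 21 of 54613 probe sets and 10 of 19775 genes. The brightest probe set by mean intensity over the 4 arrays represents each gene, and all 10 genes were measured by that probe set.

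The 4 cultures each gave 1 array: cells expressing YAP-WT, the wild-type protein, cells expressing the mutants YAP-S94A or YAP-W1W2, and cells with the empty vector. YAP is the transcriptional coactivator that the Hippo pathway restrains. The S94A change lies in the region of YAP that binds TEAD transcription factors, and W1W2 alters both WW domains, which bind proline-rich motifs. All 4 cultures had been infected with retrovirus made from pQCXIH or its YAP derivatives and grew in the same medium, with horse serum, EGF, hydrocortisone, insulin and cholera toxin, so the control cells carry the vector backbone too. Whether the cultures were pools or clones is not given in the sources used here. Because each group has 1 array, every value below compares single arrays without a replicate, no test was run, and a gene is counted as higher or lower when it differs at least 2-fold.

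TGF-beta and activin dimers bind a type II receptor, which activates a type I receptor that phosphorylates SMAD2 and SMAD3. BMPs act in the same way through SMAD1, SMAD5 and SMAD9, and the ID genes are among their best known targets. Follistatin and follistatin-like 3 bind activin outside the cell, and SMAD7, itself induced by the pathway, blocks the activated type I receptor. In mammary epithelium TGF-beta is known for restraining proliferation and for promoting mesenchymal features.

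The arrays had median intensities of 112.3 to 116.2. Intensities below a floor of 72.9 were set to it before log2 was taken. Of 9 basal epithelial markers listed, the 6 with a probe set of 1 symbol were all measured, KRT5 with intensities of 30481.6 to 33856.2 and KRT14 of 32532.6 to 39724.1, and 0 of 6 differed 2-fold from vector on any YAP array. Of the markers of other cell types with a probe set, 3 of 5 luminal, 2 of 6 fibroblast, 1 of 3 immune, 1 of 5 endothelial and 0 of 3 adipocyte markers were measured, and the endothelial CDH5, VWF and TEK lay below the floor on all 4 arrays. Several of these markers differed 2-fold from vector. The luminal factor GATA3 read 7108.3 in YAP-WT, 1458.2 in YAP-S94A, 4722.6 in YAP-W1W2 and 2679.1 in vector, which is 2.65-fold higher in YAP-WT. The luminal FOXA1 and ESR1 were 2.78-fold and 2.10-fold higher in YAP-S94A. In YAP-WT the fibroblast marker THY1 was lower, and COL1A1 was higher by its brightest probe set but lower by its other measured one. The immune marker CD14 was lower on all 3 YAP arrays. Beyond these, markers that did not count as measured crossed 2-fold against the floor: CD3E was higher in YAP-WT, and KDR and FABP4 were lower in YAP-S94A and YAP-W1W2. The summed luminal intensity was 7482 in YAP-WT, 2103 in YAP-S94A, 5170 in YAP-W1W2 and 2999 in vector, and most of it was GATA3.

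Spiked-in and housekeeping controls also differed between the arrays. The bacterial hybridization controls bioB, bioC and bioD were lower than in vector, with mean log2 folds of −0.52 to −0.30 for YAP-WT, −0.80 to −0.63 for YAP-S94A and −1.16 to −0.75 for YAP-W1W2. The fourth such control, cre, stood at 0.02, −0.04 and −0.22 in the same order. The actin and GAPDH controls were higher than in vector, actin by 0.43, 0.68 and 0.80 and GAPDH by 0.22, 0.44 and 0.44. The median gene was shifted by 0.14, 0.14 and 0.10. The part of these controls and of the cell type markers in the differences below was not tested. YAP1 itself, by its brightest probe set, read 3461.5 in YAP-WT, 4208.4 in YAP-S94A, 4657.0 in YAP-W1W2 and 4085.5 in vector, and its 3 probe sets differed from vector by at most 1.51-fold. Whether they lie within the constructs is not known.

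INHBA encodes the beta A subunit whose homodimer is activin A. Its intensity was 865.2 in YAP-WT, 208.7 in YAP-S94A, 1135.5 in YAP-W1W2 and 167.4 in vector. The arrays fell into a high pair, YAP-WT and YAP-W1W2, and a low pair, YAP-S94A and vector, with a 4.15-fold step between the pairs. The luminal marker GATA3 was also higher in the first pair than in the second. In contrast, the luminal markers FOXA1 and ESR1 were highest in YAP-S94A, at 348.9 and 166.6. A second measured probe set read 295.5, 33.0, 656.4 and 21.9 in the same order of arrays, with the low pair below the floor. Another probe set, highest in vector at 81.0, was not measured.

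TGFB2, which encodes a TGF-beta ligand, had intensities of 984.8 in YAP-WT, 226.9 in YAP-S94A, 328.0 in YAP-W1W2 and 315.2 in vector. YAP-WT stood alone, 3.00-fold above the next array, and the other 3 arrays lay within 1.45-fold of each other. Of the other measured probe sets, the brightest read 392.7 in YAP-WT, 137.5 in YAP-S94A, 272.3 in YAP-W1W2 and 108.7 in vector. In contrast, the dimmest was highest in YAP-S94A, at 195.5, with 134.8 in YAP-W1W2 and values under the floor in YAP-WT and vector. The remaining measured one read 354.4, 100.8, 159.9 and 135.7 in the order YAP-WT, YAP-S94A, YAP-W1W2 and vector. The TGFB2 differences therefore depend on the probe set: over the 4 measured ones the log2 fold of YAP-S94A over YAP-WT ran from −2.12 to at least 1.42.

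TGFB1, the most widely expressed TGF-beta ligand gene, showed another order. Its brightest probe set read 1160.5 in YAP-WT, 990.8 in YAP-S94A, 436.8 in YAP-W1W2 and 1134.7 in vector. Here YAP-W1W2 was the low array and the other 3 lay within 1.17-fold of each other. By their brightest probe sets, the 3 ligand genes thus each had a different array or pair of arrays standing apart. The next brightest TGFB2 probe set, like INHBA, was higher in YAP-WT and YAP-W1W2 than in YAP-S94A and vector. A second TGFB1 probe set lay below the floor on 3 arrays and was not measured.

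TGFBR2 encodes the type II receptor for TGF-beta. Its intensity was 6042.7 in YAP-WT, 7974.4 in YAP-S94A, 13973.5 in YAP-W1W2 and 6004.7 in vector. YAP-WT and vector were within 1.01-fold, and YAP-W1W2 was highest by 1.75-fold over the next array. The second probe set kept that order apart from its lowest pair, with 488.6 in YAP-WT, 722.9 in YAP-S94A, 948.1 in YAP-W1W2 and 495.4 in vector.

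FST encodes follistatin, the secreted protein that binds and neutralizes activin. Intensities were 120.9 in YAP-WT, 937.6 in YAP-S94A, 473.2 in YAP-W1W2 and 261.3 in vector. By the brightest probe sets, FST had the widest range over the arrays of the 10 genes, 7.76-fold. Its lowest and highest arrays were YAP-WT and YAP-S94A. The second measured probe set read 127.4 in YAP-WT, 257.8 in YAP-S94A, 203.4 in YAP-W1W2 and 105.4 in vector, so it also put YAP-S94A highest but placed YAP-WT just above vector. Another probe set, not measured by its mean, exceeded the floor only in YAP-S94A, at 218.5.

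FSTL3 encodes a second activin-binding protein of the follistatin family. Its single probe set read 4544.3 in YAP-WT, 4015.4 in YAP-S94A, 6322.5 in YAP-W1W2 and 1888.5 in vector. All 3 YAP arrays were above vector, by at least 2.13-fold, whereas the 3 differed among themselves by at most 1.57-fold. By their brightest probe sets, the 2 activin antagonists therefore ran differently over the arrays. FST was split between YAP-WT and YAP-S94A, and FSTL3 between vector and the rest. The second FST probe set, like FSTL3, was lowest in vector.

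**Figure D1:**
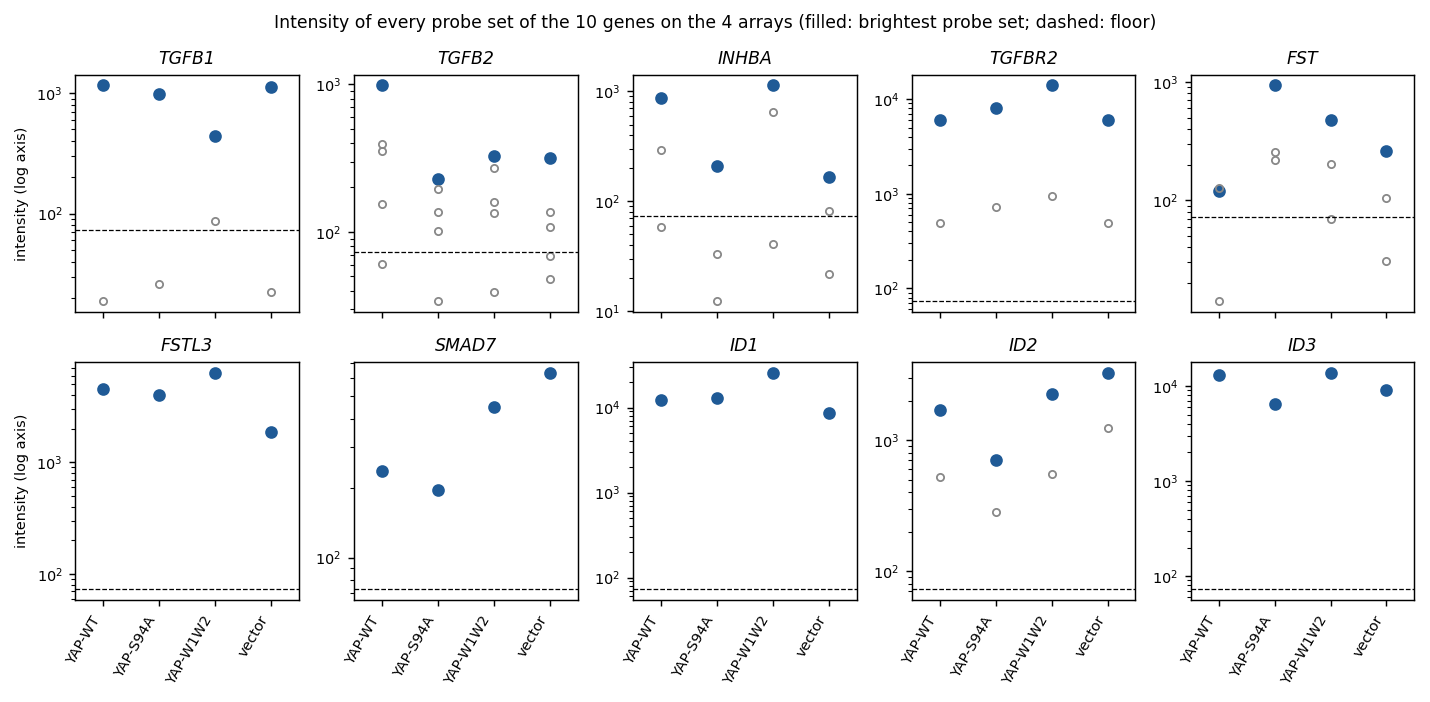
Intensity on a log axis for each probe set of the 10 genes, with YAP-WT, YAP-S94A, YAP-W1W2 and vector from left to right, 1 array each; filled points are the brightest probe set, open points the others, and the dashed line is the floor of 72.9. INHBA is high in YAP-WT and YAP-W1W2, TGFB2 in YAP-WT, FST in YAP-S94A, and SMAD7 and ID2 are highest in vector.

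INHBA, TGFB2 and FST were the members with the largest differences between YAP-S94A and YAP-WT, so their promoter windows are shown, together with that of ID1, which differed by 1.04-fold there. Each window holds 250 bases before and 30 after the annotated start (RefSeq, GRCh38.p14). Capitals mark the TEAD motif GGAATG (or CATTCC on the other strand) and the AP-1 motif TGANTCA, which do not overlap here.
INHBA, chr7:41703061-41703340, minus strand: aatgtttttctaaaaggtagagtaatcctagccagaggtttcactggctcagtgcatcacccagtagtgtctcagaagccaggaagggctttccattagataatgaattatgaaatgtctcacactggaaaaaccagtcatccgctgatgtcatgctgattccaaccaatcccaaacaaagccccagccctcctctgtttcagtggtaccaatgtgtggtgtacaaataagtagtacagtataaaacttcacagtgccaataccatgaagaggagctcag
TGFB2, chr1:218345086-218345365, plus strand: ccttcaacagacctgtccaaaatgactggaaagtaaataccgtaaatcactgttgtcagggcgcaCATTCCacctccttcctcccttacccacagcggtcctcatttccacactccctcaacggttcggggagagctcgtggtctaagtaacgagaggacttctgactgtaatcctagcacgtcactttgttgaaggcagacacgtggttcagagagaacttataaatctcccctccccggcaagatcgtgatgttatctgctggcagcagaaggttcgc
FST, chr5:53480379-53480658, plus strand: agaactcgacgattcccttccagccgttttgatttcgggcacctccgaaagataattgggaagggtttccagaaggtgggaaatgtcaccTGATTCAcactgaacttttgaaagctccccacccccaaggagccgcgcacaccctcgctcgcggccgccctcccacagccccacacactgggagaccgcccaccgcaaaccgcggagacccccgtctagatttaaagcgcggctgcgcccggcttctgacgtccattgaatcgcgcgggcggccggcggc
ID1, chr20:31605039-31605318, plus strand: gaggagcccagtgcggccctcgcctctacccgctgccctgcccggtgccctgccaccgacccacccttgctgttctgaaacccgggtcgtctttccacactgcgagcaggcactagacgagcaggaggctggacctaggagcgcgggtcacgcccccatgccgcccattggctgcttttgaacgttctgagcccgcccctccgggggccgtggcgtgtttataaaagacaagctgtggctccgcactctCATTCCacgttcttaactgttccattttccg
The TEAD motif was found in the windows of TGFB2, 185 bases before the start, and of ID1, where it begins 1 base before the start, and so in 2 of the 13 windows of the 10 genes; 13.3% of 35116 promoter windows held it. The AP-1 motif was found for FST, 160 bases before the start, and in 1 window of TGFBR2. That is 2 of the 13 windows, against 7.35% of all windows. The SMAD box GTCTG or CAGAC was found in 4 of the 13 windows, against 42.7% of all windows. These belonged to ID3, TGFB2 and SMAD7, though not every SMAD7 window held it. The GC-rich SMAD box GGCGCC was found for FSTL3 alone, in 1 of the 13 windows, against 18.0%. INHBA held none of the 4 motifs in this window. A match is a description of the letters, and nothing is drawn from it about a factor.

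SMAD7 encodes the inhibitory SMAD that closes the negative feedback loop of the pathway. Its single probe set read 236.2 in YAP-WT, 196.9 in YAP-S94A, 451.1 in YAP-W1W2 and 629.9 in vector. Vector was highest, YAP-W1W2 lay 1.40-fold below it, and YAP-WT and YAP-S94A, which differed by 1.20-fold, were lowest.

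The ID genes encode helix-loop-helix proteins without a DNA-binding region, which hold back basic helix-loop-helix factors. ID1 read 12254.6 in YAP-WT, 12792.9 in YAP-S94A, 25413.1 in YAP-W1W2 and 8508.6 in vector. YAP-W1W2 was highest by 1.99-fold over YAP-S94A, and all 3 YAP arrays were above vector. ID2 ran the other way, with 1693.4 in YAP-WT, 703.3 in YAP-S94A, 2234.7 in YAP-W1W2 and 3242.2 in vector. Vector was highest for ID2 and YAP-S94A lowest, and the second ID2 probe set kept this order, with 522.6 in YAP-WT, 284.9 in YAP-S94A, 553.6 in YAP-W1W2 and 1233.3 in vector. ID3 read 12918.1 in YAP-WT, 6457.5 in YAP-S94A, 13676.1 in YAP-W1W2 and 9170.5 in vector. Its YAP-WT and YAP-W1W2 arrays were within 1.06-fold of each other and YAP-S94A was lowest. The 3 ID genes were each highest or second highest in YAP-W1W2, but only ID2 and ID3 were lowest in YAP-S94A. One further probe set annotated to ID2 and another symbol was left out.

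YAP-WT was set against vector to see which of these transcripts differ in cells with the wild-type YAP construct. INHBA was 5.17-fold higher, TGFB2 3.12-fold and FSTL3 2.41-fold, while SMAD7 was 2.67-fold lower and FST 2.16-fold lower. Thus 3 of 10 genes were at least 2-fold higher, against 9.10% of all 12759 measured genes, and 2 were lower, against 4.95% (14.0% in either direction). ID2 fell short at 1.91-fold lower, though its second measured probe set was 2.36-fold lower. TGFB1 and TGFBR2 stood at log2 folds of 0.03 and 0.01. The median of the 10 genes was 0.26 (log2), beside 0.14 for all measured genes. The lower FST value rests on its brightest probe set: the other measured one gave a log2 fold of 0.27. INHBA was among the most raised genes, since 0.651% of measured genes were at least as much higher.

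YAP-S94A was set against vector to see what differs when YAP with an altered TEAD-binding region is expressed. FST was 3.59-fold higher and FSTL3 2.13-fold, and ID2 was 4.61-fold lower and SMAD7 3.20-fold lower. So 2 of 10 genes were higher, against 10.3% of all measured genes, and 2 lower, against 6.53% (16.8% in either direction). INHBA stood at a log2 fold of 0.32 and TGFB2 at −0.47. Both measured probe sets of FST were higher, by log2 folds of 1.29 and 1.84, and both of ID2 lower, by −2.11 and −2.20. FSTL3 lost the 2-fold mark, at a log2 fold of 0.94, when the arrays were centred on the median gene. The median of the 10 was 0.06 (log2), beside 0.14 for all measured genes.

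YAP-W1W2 was set against vector to see what differs when YAP with altered WW domains is expressed. INHBA was 6.78-fold higher, FSTL3 3.35-fold, ID1 2.99-fold and TGFBR2 2.33-fold, and TGFB1 was 2.60-fold lower. This made 4 of 10 genes higher, against 11.4% of all measured genes, and 1 lower, against 8.40% (19.8% in either direction). Under the 2-fold mark were FST, 1.81-fold higher, ID3, 1.49-fold higher, and ID2 and SMAD7, 1.45-fold and 1.40-fold lower. By their second probe sets TGFBR2 was 1.91-fold higher and ID2 2.23-fold lower. The median of the 10 was 0.72 (log2), beside 0.10 for all measured genes. The 3 comparisons with vector share that array, so a deviation of it enters all of them.

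**Figure D2:**
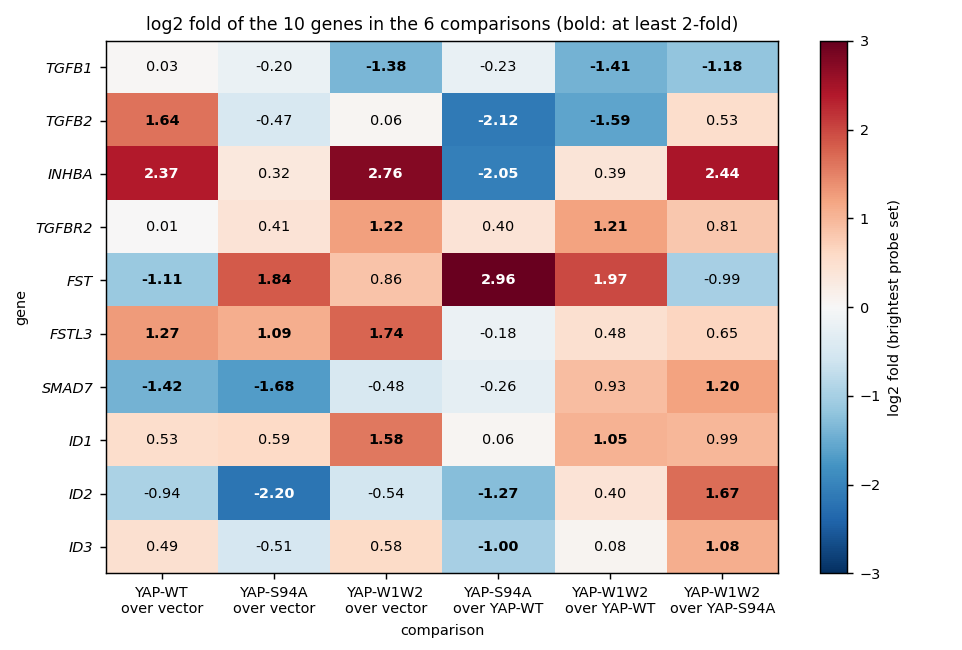
The log2 fold of the brightest probe set of each of the 10 genes (rows) in the 6 comparisons (columns), from blue (lower in the first-named array) to red (higher), with bold figures at 2-fold or more. FST is at 2.96 and INHBA at −2.05 in YAP-S94A over YAP-WT, and FSTL3 is above 1 in each comparison with vector.

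Setting YAP-S94A directly against YAP-WT leaves the vector array out. FST was 7.76-fold higher in YAP-S94A, and only 0.125% of measured genes were at least as much higher. TGFB2 was 4.34-fold lower, INHBA 4.15-fold and ID2 2.41-fold, and ID3 lay at the mark, 2.00-fold lower. Accordingly 1 of 10 genes was higher, against 5.06% of all measured genes, and 4 were lower, against 6.27% (11.3% in either direction). INHBA and the activin antagonist FST thus differed in opposite directions between these arrays, and each did so by both of its measured probe sets. The other activin antagonist, FSTL3, stood at a log2 fold of −0.18. INHBA was lower by a log2 fold of −2.05 in its brightest probe set and at least 4.05-fold lower in the other, which lay under the floor in YAP-S94A. FST was higher by log2 folds of 2.96 and 1.02. The second ID2 probe set was 1.83-fold lower, under the mark, and the dimmest measured TGFB2 probe set was at least 2.68-fold higher. For ID3 the log2 fold was −0.99 after median centring. The median of the 10 was −0.25 (log2), beside 0.01 for all measured genes.

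YAP-W1W2 was also set against YAP-WT, to see what differs with the altered WW domains. FST was 3.91-fold higher in YAP-W1W2, TGFBR2 2.31-fold and ID1 2.07-fold, and TGFB2 was 3.00-fold lower and TGFB1 2.66-fold lower. In numbers, 3 of 10 genes were higher, against 3.91% of all measured genes, and 2 lower, against 5.59% (9.50% in either direction). INHBA differed by 1.31-fold and ID3 by 1.06-fold, but the second measured INHBA probe set was 2.22-fold higher in YAP-W1W2. For TGFB2, the mean over the measured probe sets gave a log2 fold of −0.59. The second FST probe set was at 0.67 (log2), and the second TGFBR2 probe set was 1.94-fold higher, under the mark. The median of the 10 was 0.44 (log2), beside −0.04 for all measured genes.

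Between the mutants, YAP-W1W2 had INHBA 5.44-fold higher than YAP-S94A, ID2 3.18-fold, SMAD7 2.29-fold and ID3 2.12-fold, and TGFB1 2.27-fold lower. That was 4 of 10 genes higher, against 4.98% of all measured genes, and 1 lower, against 4.45% (9.43% in either direction). ID1 and FST fell just short of the mark, at log2 folds of 0.99 and −0.99, and so did the second ID2 probe set, 1.94-fold higher. The median of the 10 was 0.90 (log2), beside −0.07 for all measured genes. As the 10 genes were picked by name with earlier results of these arrays known, these shares describe them and are no test.

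**Figure D3:**
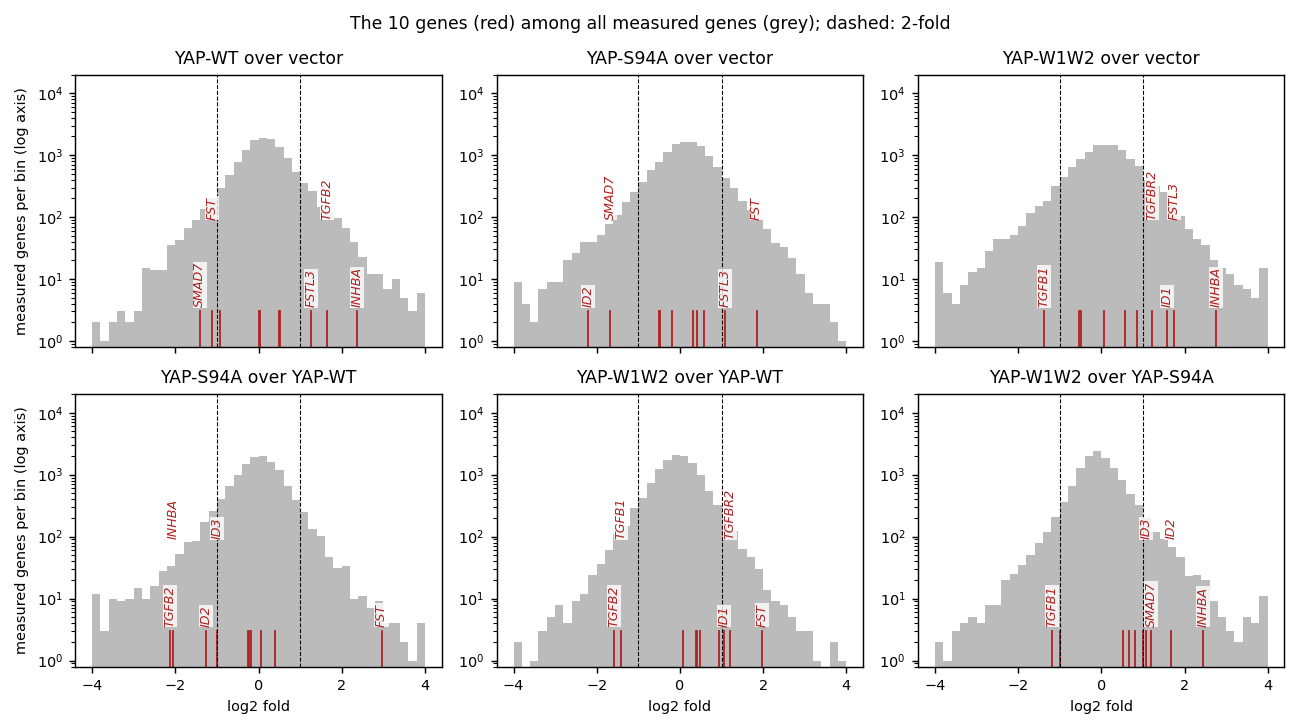
Histograms of the log2 fold of all 12759 measured genes in the 6 comparisons (grey, log axis of gene number, values beyond 4 gathered in the end bins), with the 10 genes as red ticks and the 2-fold marks dashed; the genes past 2-fold are named. INHBA and FST lie in the outer parts of the YAP-S94A over YAP-WT distribution, on opposite sides.

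The other genes of the pathway were taken from a list of 92, of which 85 had a probe set of 1 symbol and 66 were measured. In YAP-WT against vector 12 of 66 were at least 2-fold higher and 4 lower, beside 9.10% and 4.95% of all measured genes. In YAP-S94A against vector 7 were higher and 6 lower, beside 10.3% and 6.53%. In YAP-W1W2 against vector the counts were 11 and 6, beside 11.4% and 8.40%. Between YAP-S94A and YAP-WT 5 were higher and 12 lower, beside 5.06% and 6.27% of all measured genes. Between YAP-W1W2 and YAP-WT the counts were 5 and 7, beside 3.91% and 5.59%, and between YAP-W1W2 and YAP-S94A 9 and 3, beside 4.98% and 4.45%. As shares of 66, the list had 18.2% and 6.06% in YAP-WT against vector, 10.6% and 9.09% in YAP-S94A against vector and 16.7% and 9.09% in YAP-W1W2 against vector. Their medians, from −0.19 to 0.14 (log2), stood beside −0.07 to 0.14 for all measured genes. Over the 6 comparisons, 59 of the 87 values past 2-fold belonged to genes with more than 1 measured probe set, and in 30 of the 59 every measured probe set passed 2-fold the same way. The values below are those of the brightest probe set.

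Among the 10 other measured ligand genes, BMP2 was highest in vector, with 259.9 in YAP-WT, 172.5 in YAP-S94A, 91.2 in YAP-W1W2 and 530.5 in vector. It was 2.04-fold, 3.08-fold and 5.82-fold lower than vector on these YAP arrays in turn. Its other measured probe set was also highest in vector but stayed under 2-fold, at log2 folds of −0.52, −0.73 and −0.80. GDF15, a stress-induced ligand, was 4.13-fold lower in YAP-W1W2 than in vector, with 132.3 and 546.6. BMP6 lay under the floor in vector, and was higher by at least 2.82-fold in YAP-S94A and by at least 2.78-fold in YAP-W1W2. GDF11 and BMP7, both under the floor in YAP-WT, were higher by at least 2.90-fold and at least 2.73-fold in YAP-S94A.

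Of the genes that store or release latent TGF-beta, THBS1, an activator of the latent form, read 13368.7 in YAP-WT, 4827.1 in YAP-S94A, 10343.7 in YAP-W1W2 and 1446.4 in vector. All 3 YAP arrays were above vector for THBS1, with YAP-S94A the lowest of them; over its 6 measured probe sets, however, the log2 fold of YAP-W1W2 over vector ran from −0.35 to 4.14. The microfibril gene FBN2 read 14284.6, 4608.3, 16630.0 and 2475.8 in the same order of arrays. Over its 3 measured probe sets the log2 fold over vector ran from 0.44 to 2.53 for YAP-WT and from 1.02 to 2.75 for YAP-W1W2, and that of YAP-S94A over YAP-WT from −1.89 to −0.28. FBN1, its relative, exceeded vector 2.89-fold in YAP-WT and was 3.14-fold below it in YAP-S94A. Of the latent TGF-beta binding proteins, LTBP2 was 3.77-fold above vector in YAP-WT. They differed among themselves in YAP-S94A, where LTBP4 was 3.52-fold below vector and LTBP2 and LTBP3 were at least 2-fold above it. For LTBP2 and LTBP3 not every measured probe set passed 2-fold there. ITGB8, a subunit of an integrin that activates latent TGF-beta, was 2.21-fold lower in YAP-WT and 3.24-fold lower in YAP-W1W2 than in vector.

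Of 10 measured receptor genes, against vector 1 was higher in YAP-WT, 1 higher and 1 lower in YAP-S94A, and 2 higher and 1 lower in YAP-W1W2, beside 14.0%, 16.8% and 19.8% of all measured genes in either direction. The co-receptor endoglin (ENG) read 615.8 in YAP-WT, 639.3 in YAP-S94A, 674.9 in YAP-W1W2 and 171.6 in vector, at least 3.59-fold above vector throughout. TGFBR3, the betaglycan co-receptor, read 1923.0, 515.6, 373.9 and 3004.4 in the same order, and was 5.83-fold lower in YAP-S94A and 8.04-fold lower in YAP-W1W2 than in vector. The type I receptor gene ACVR1C, under the floor in vector, was higher by at least 3.47-fold in YAP-W1W2. In the SMAD group 1 of 7 genes passed 2-fold, the SMAD anchor ZFYVE9, 2.29-fold above vector in YAP-WT; SMAD1 to SMAD5 and SMAD9 did not.

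Among the extracellular antagonists, decorin (DCN), a proteoglycan that binds TGF-beta, read 3884.2 in YAP-WT, 288.0 in YAP-S94A, 248.3 in YAP-W1W2 and 9343.9 in vector. FSTL1, a relative of follistatin, read 11828.3, 2245.0, 9895.2 and 2661.5 in the same order. FSTL1 thus had the same high pair of arrays as INHBA, YAP-WT and YAP-W1W2, although its other measured probe set put YAP-W1W2 only 0.38 (log2) above vector. CRIM1 was 2.22-fold above vector in YAP-WT, and 2.58-fold lower in YAP-S94A than in YAP-WT; of its 3 measured probe sets the weakest gave log2 folds of 0.70 and −0.79 there. TWSG1 was 2.39-fold lower in YAP-S94A than in YAP-WT. BAMBI, a decoy receptor, was 2.11-fold higher in YAP-W1W2 than in YAP-S94A.

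Of 12 intracellular inhibitors, SMAD6, the inhibitory SMAD of the BMP branch, read 376.5 in YAP-WT, 20.9 in YAP-S94A, 441.2 in YAP-W1W2 and 444.5 in vector. By this probe set only YAP-S94A was under the floor, at least 5.16-fold below YAP-WT and at least 6.10-fold below vector. In a second measured SMAD6 probe set YAP-WT and YAP-S94A, at 53.2 and 64.8, both lay under the floor, so it gives no fold between them. Against vector, at 178.4, each was at least 2.45-fold lower there, and YAP-W1W2 read 173.6. PMEPA1, a TGF-beta induced inhibitor, was 2.89-fold above vector in YAP-WT and 4.08-fold lower in YAP-S94A than in YAP-WT; the weakest of its 3 measured probe sets gave log2 folds of 0.66 and −0.38. In YAP-W1W2, SKIL was 2.55-fold, the ubiquitin ligase SMURF2 2.33-fold and TGIF1 2.27-fold higher than in vector, although another TGIF1 probe set stood at −0.10 (log2) and the weakest of 4 for SMURF2 at 0.68. TGIF2 was 2.22-fold above vector in YAP-S94A, and its other measured probe set stood at 0.58 (log2).

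Among 10 measured target genes, YAP-WT had 3 higher and 1 lower than vector, beside 9.10% and 4.95% of all measured genes. CCN2, also a known YAP target, read 5523.3 in YAP-WT, 636.5 in YAP-S94A, 8074.9 in YAP-W1W2 and 322.8 in vector. The actin-binding TAGLN read 7448.9, 11055.0, 11121.1 and 1912.8 in the same order, so that all YAP arrays were above vector; its weakest probe set gave a log2 fold of 0.70 in YAP-WT. JUNB was 3.32-fold lower in YAP-WT than in vector, with 534.3 and 1774.0. COL1A1 was 2.45-fold above vector in YAP-WT by its brightest probe set, and its other measured probe set went the other way, at −2.29 (log2). TGFBI and CDKN1A, both induced by TGF-beta in many cells, had log2 folds of 0.07 and 0.06 in YAP-WT over vector. MCF10A cultures can hold cells in several states, and fewer cells expressing a gene and less RNA per cell cannot be told apart here.

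**Figure D4:**
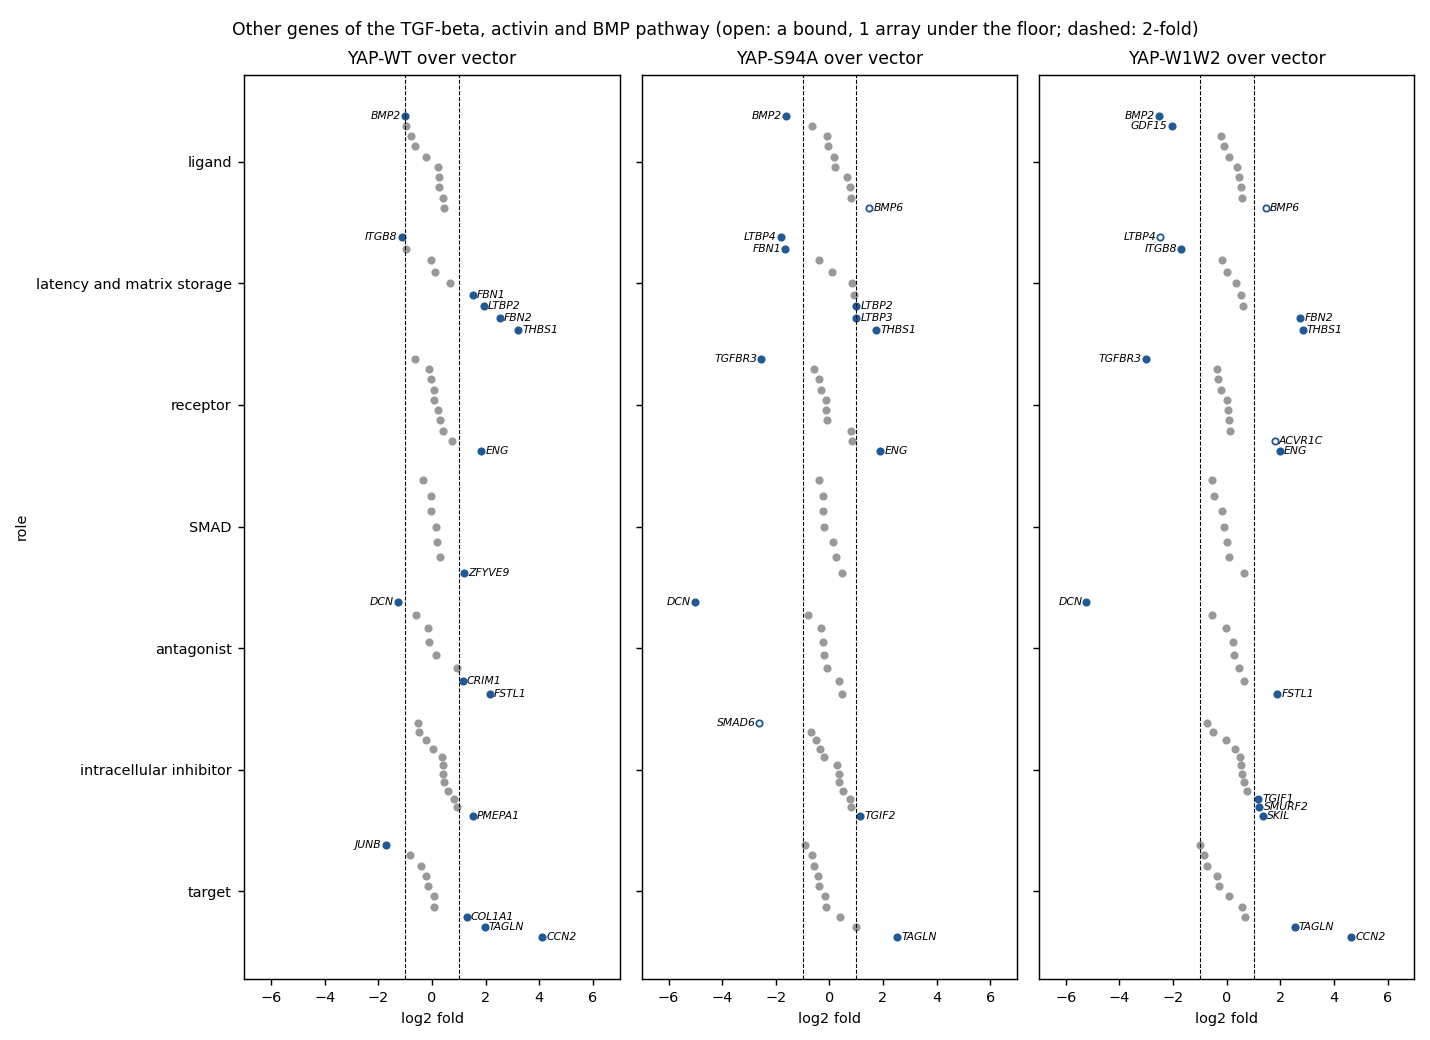
The log2 fold against vector of the 66 other measured pathway genes by role, with YAP-WT left, YAP-S94A in the middle and YAP-W1W2 right; genes at least 2-fold changed are blue and named, open points are bounds, and dashed lines mark 2-fold. The SMAD genes, apart from ZFYVE9 in YAP-WT, lie inside the 2-fold marks, while DCN reaches −5.02 for YAP-S94A and −5.23 for YAP-W1W2.

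The genes with profiles nearest to those of INHBA and ID1 were sought among 11883 measured genes above the floor on all 4 arrays. Likeness was the Euclidean distance between log2 profiles, each centred on its own mean over the 4 arrays. Nearest to INHBA were PCDH7 at 0.32, BDNF at 0.35, LHFPL6 at 0.36, COL4A1 at 0.38 and PARVA at 0.41, and 7 genes lay within 0.5. BDNF, a neurotrophin gene, read 2071.2 in YAP-WT, 589.6 in YAP-S94A, 2762.1 in YAP-W1W2 and 335.2 in vector. The collagen IV gene COL4A1 read 4941.1, 1338.8, 5062.9 and 930.5 in the same order. Nearest to ID1 were LINC01193 and KLK13 at 0.11 each, FAP at 0.14, RASSF1 at 0.16 and GULP1 at 0.17, and 186 genes lay within 0.5. FAP, which encodes a cell-surface protease, read 1631.2 in YAP-WT, 1661.7 in YAP-S94A, 3690.6 in YAP-W1W2 and 1220.0 in vector. With 4 arrays a near profile is easily met, the more so for the flatter ID1.

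**Figure D5:**
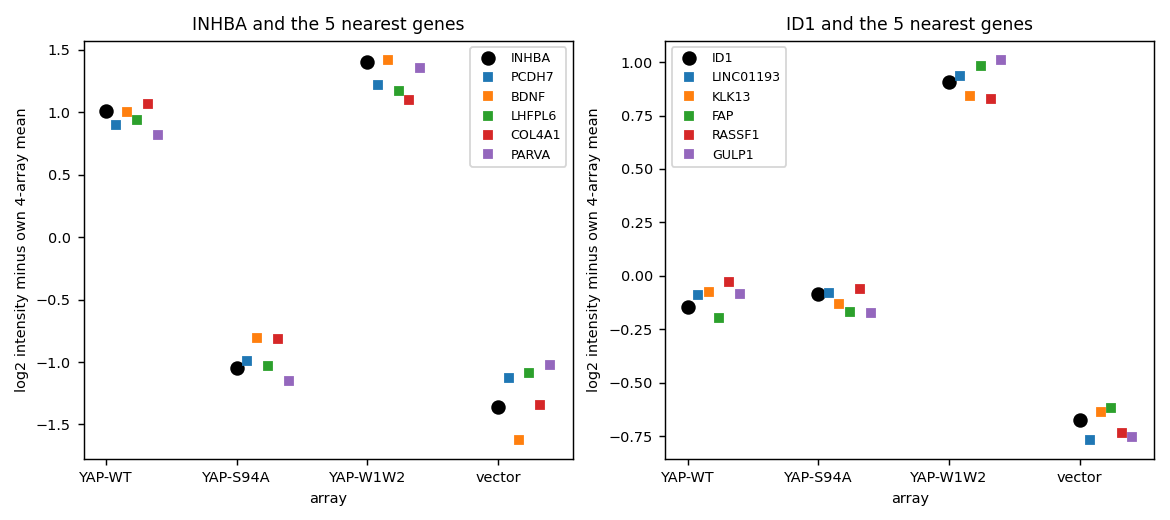
Log2 intensity minus its own mean over the 4 arrays for INHBA (left) and ID1 (right), black circles, and the 5 nearest genes, coloured squares set slightly to the right, on the YAP-WT, YAP-S94A, YAP-W1W2 and vector arrays. For INHBA the YAP-WT and YAP-W1W2 values lie above 0 and the others below, and for ID1 only YAP-W1W2 lies above.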

How the data were processed

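RNA of 4 MCF10A cultures was isolated with Trizol and biotin-labelled, per the labels' protocols, with 1 array per culture. The deposited values are probe set intensities on a linear scale from GCOS, per the submitters' processing notes, with no version or scaling target stated. Trimmed means differed by a ratio of at most 1.098, so no rescaling was done. Of 54675 probe sets, 62 were controls; 41091 of the rest had 1 gene symbol, 1801 several and 11721 none. The floor was the 40th percentile of all intensities (72.9), applied before log2; where 1 side lies under it the fold is a lower bound. A gene was measured if the mean of its brightest probe set reached 113.6, the median over probe sets. The number of arrays limits the precision, and no test or error was computed.

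Genes named were the 10 members, pathway genes at least 2-fold different in some comparison, the 5 genes nearest to INHBA and to ID1, YAP1 and cell type markers; TGFBI, CDKN1A and the SMAD genes were named after their values were seen. Members and lists were chosen with earlier results of these data known. Alternatives changed the floor, the probe set choice, the scaling or the filter. The fold calculation, in Python 3.11.15, was tested on simulated data.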

Additional observations from a re-analysis of the deposited data

How the results depend on the processing

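No paired analysis was possible because each group has 1 array, so no replicate could be left out either. Over 7 alternatives, 119 of 126 counts and medians moved by at most 1.5 times (medians by at most a 1.5-fold). The other 7 all came from using only probe sets without an _s_at, _x_at or _a_at suffix, which left 5 of the 10 genes measured. The number of the 10 genes changed at least 2-fold was then 3 in YAP-WT and 2 each in YAP-S94A and YAP-W1W2 against vector, 3 in YAP-S94A and 2 in YAP-W1W2 against YAP-WT, and 2 in YAP-W1W2 against YAP-S94A; the count for the wider list in YAP-S94A against vector was 8. Among 390 values of single genes, 376 kept their side of 2-fold, 7 lost the 2-fold mark, 6 gained it, and 1 past the mark changed sign: FST in YAP-WT against vector, at a log2 fold of 0.27 with those probe sets. Of the 376, 370 kept their sign and 6 under the mark changed it. In YAP-WT against vector these were TGFB1, at −0.13 and −0.12 with median centring and quantile normalization, and TGFBR2, at −0.15 and −0.16 with these and −0.01 with the mean over probe sets. In YAP-S94A against vector it was TGFB2, at 0.21 with the mean over probe sets. In YAP-WT against vector ID2 passed 2-fold, at −1.10 after median centring and −1.11 after quantile normalization. SMAD7 in YAP-W1W2 against YAP-WT did so at 1.07 and 1.04. With 1 array per group, array error has no estimate, and values near the floor give only bounds.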
